A study of Mus musculus with 10 samples.

Results

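Transcripts that are characteristic of brain cells other than microglia were followed in RNA from sorted mouse microglia. The 31 genes were a given list of markers, and all 31 were found by symbol among the 49315 genes of the count tables. They comprise 12 genes of the oligodendrocyte lineage, 10 of neurons, 7 of astrocytes, 1 of the choroid plexus (Ttr) and 1 of blood vessels (Cldn5). Microglia, the macrophages that live in brain tissue, had been sorted by flow cytometry from brains of wild-type C57BL/6 mice by surface CD11c, the integrin alpha X chain. The 10 libraries formed 4 groups, namely 9-month CD11c+ (n = 2), 9-month CD11c- (n = 2), postnatal day 5 (P5) CD11c+ (n = 3) and P5 CD11c- (n = 3). None of the 4 groups carried an engineered allele or a treatment in the labels. The SMART-Seq v4 kit is stated for the 9-month libraries alone, so age and library preparation cannot be told apart, and ages were not tested within a subset. The labels do not say whether replicates came from separate animals, so each p-value reflects only the scatter among these libraries, which could be technical in origin.

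Oligodendrocytes wrap axons in myelin, whose main proteins include Mbp, Mag, Mog, Mobp and the enzyme Cnp. Astrocytes clear glutamate and water through Slc1a3, Slc1a2 and Aqp4, the choroid plexus secretes transthyretin (Ttr) into the cerebrospinal fluid, and endothelial cells seal vessels with Cldn5. Microglia engulf myelin, synapses and dying cells, and a cell suspension of brain also holds free RNA and debris, so such transcripts can enter a microglial library in several ways. Some of the genes are not exclusive to their cell type. The Mbp locus also makes the golli transcripts known in immune cells, which fall under the same gene identifier, and Slc1a3 and Cnp are known outside astrocytes and oligodendrocytes. Carry-over, uptake and transcription in the sorted cells were not tested here. In bulk samples, fewer cells of a type and less RNA per cell cannot be told apart.

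Total counts were 11892082 to 25483573 in 9 libraries and 2619610 in P5 CD11c+ replicate 2, where a single count equals 0.382 CPM (counts scaled to the library total). In that library 23032 genes reached 1 CPM, whereas 12761 to 14734 genes did so in the others. Its values are therefore described apart, and fitted P5 results are given with and without it. The labelled cell type was checked with 30 genes of homeostatic microglia, which were all detected in every library. They made up 11.5% and 10.99% of counts in the CD11c+ pair of 9 months and 3.79% and 3.77% in the CD11c- pair. At P5 they made up 2.98%, 1.99% and 3.12% in CD11c+ libraries, against 4.44%, 2.76% and 2.52% in CD11c- libraries. Neutrophil genes (16 genes) made up 0.316% and 0.221% in 9-month CD11c+ libraries but 14.1% and 19.1% in 9-month CD11c- libraries.

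Upstream sequences are shown for Mag, Cnp and Slc1a3, the members that were higher in CD11c+ libraries at 9 months. Each line holds the 150 bases before the transcript start in RefSeq (GRCm38.p6), 5′ to 3′ on the gene's strand, for Mag on the minus strand of chr7:30914864-30915013, for Cnp on the plus strand of chr11:100574789-100574938 and for Slc1a3 on the minus strand of chr15:8710808-8710957. Capitals mark the only match found.
Mag: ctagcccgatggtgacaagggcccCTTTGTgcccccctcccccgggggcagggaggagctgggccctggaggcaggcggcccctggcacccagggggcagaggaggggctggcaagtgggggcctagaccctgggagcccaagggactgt
Cnp: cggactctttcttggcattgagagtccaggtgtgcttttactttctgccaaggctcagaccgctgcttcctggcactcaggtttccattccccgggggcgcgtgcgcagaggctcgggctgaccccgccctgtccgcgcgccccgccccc
Slc1a3: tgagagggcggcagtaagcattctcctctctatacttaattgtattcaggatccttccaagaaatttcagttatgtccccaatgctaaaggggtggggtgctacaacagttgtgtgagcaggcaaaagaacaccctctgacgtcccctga
On both strands the letters GAGGAAGT (PU.1-type, after the myeloid factor PU.1) and ACAAAG or ACAATG (SOX-type, after the factor family of Sox10) were searched, and none of these overlaps another. GAGGAAGT occurs in 1.63% of the 32851 promoters of the same length and either SOX-type string in 15.5%. The one match was ACAAAG on the opposite strand (CTTTGT), starting 126 bases before the Mag start. A match describes the letters and is not a binding site, and no match says only that these letters are not in this window.

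The markers were a small share of each library. Their sum was 477 and 449 CPM in 9-month CD11c+ libraries, 419 and 351 CPM in 9-month CD11c- libraries, 169, 314 and 180 CPM in P5 CD11c+ libraries and 200, 168 and 245 CPM in P5 CD11c- libraries. This equals 0.0168% to 0.0477% of counts. Leaving aside P5 CD11c+ replicate 2, only 6 of the 31 exceeded 10 CPM in any library, namely Mbp, Mag, Mobp, Cnp, Slc1a3 and Ttr. Rbfox3, Tubb3 and Gja1 reached between 5 and 10 CPM, and 22 members never exceeded 5 CPM. In the 4 libraries of 9 months, 20 members never exceeded 1 CPM.

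**Figure D1:**
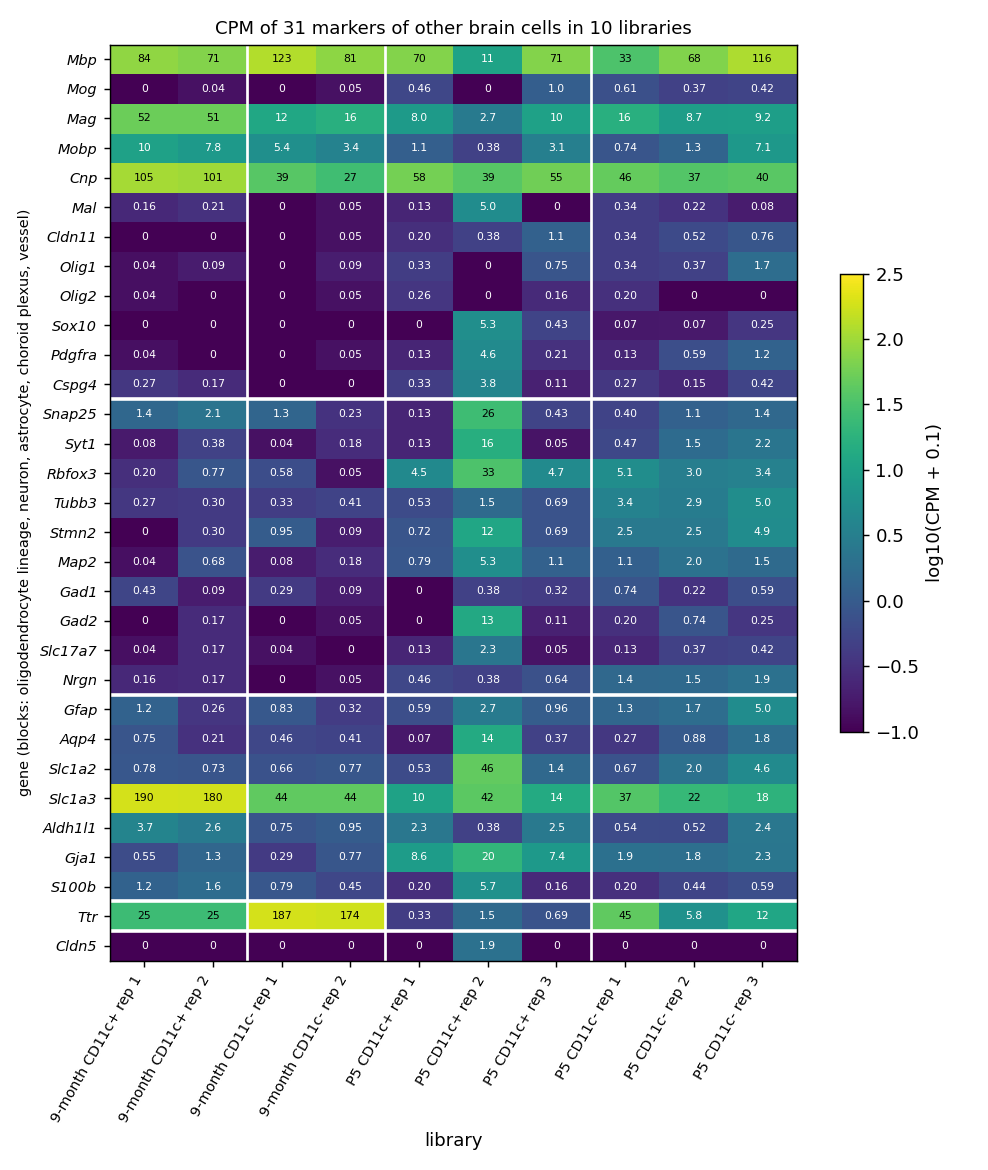
Plain CPM of the 31 members (vertical axis, in blocks by cell type of origin) in each of the 10 libraries (horizontal axis), with colour on a log10(CPM + 0.1) scale and the CPM printed in each cell. Most cells are dark, Mbp, Mag, Cnp, Slc1a3 and Ttr stand out at 9 months, and P5 CD11c+ replicate 2 has high values in neuron and astrocyte blocks.

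Several defining genes of the oligodendrocyte lineage were at or near 0 at 9 months. Sox10, the lineage-defining transcription factor, had 0 counts in all 4 libraries. Mog, a surface protein of the outer myelin layer, had 0 and 1 counts in CD11c+ libraries and 0 and 1 counts in CD11c- libraries. The lineage factors Olig1 and Olig2 and the precursor receptor Pdgfra each had at most 2 counts in any 9-month library, and the tight junction gene of myelin Cldn11 at most 1. A count of 3 corresponds to 0.118 to 0.136 CPM there.

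Mag, an adhesion protein of the inner myelin wrap (ENSMUSG00000036634, chromosome 7, 30899176 to 30914873), had 52.3 and 51.0 CPM in 9-month CD11c+ libraries, against 12.1 and 15.9 CPM in 9-month CD11c- libraries. Both CD11c+ libraries lay above both CD11c- libraries. The log2 fold change was 1.49 ± 0.24 (SE; edgeR adjusted p = 0.00415). At P5 it had 7.97, 2.67 and 10.1 CPM in CD11c+ libraries and 15.8, 8.70 and 9.17 CPM in CD11c- libraries, which overlapped. The P5 log2 fold change was -0.83 ± 0.54 (edgeR adjusted p = 0.800), and -0.45 ± 0.25 without replicate 2 (edgeR adjusted p = 0.298).

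Cnp, a phosphodiesterase of non-compact myelin (ENSMUSG00000006782, chromosome 11, 100574904 to 100591729), had 105 and 101 CPM in 9-month CD11c+ libraries, against 39.4 and 26.9 CPM in CD11c- libraries. The groups did not overlap, and the log2 fold change was 1.27 ± 0.19 (edgeR adjusted p = 0.00311). At P5 it had 58.2, 38.9 and 55.4 CPM in CD11c+ libraries and 46.4, 36.9 and 40.4 CPM in CD11c- libraries. Replicate 2 was the CD11c+ library that fell among the CD11c- values, and the log2 fold change was 0.12 ± 0.23 with it and 0.29 ± 0.14 without it (edgeR adjusted p = 0.918 and 0.233).

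Mbp, the basic protein that compacts myelin (ENSMUSG00000041607, chromosome 18, 82475146 to 82585637), went the other way at 9 months. It had 83.6 and 71.3 CPM in CD11c+ libraries and 123 and 81.1 CPM in CD11c- libraries, so the plain CPM values overlapped. With the scaling factors of the fit, which were 1.13 and 1.15 in CD11c+ libraries against 0.934 and 0.825 in CD11c- libraries, it fell by 0.76 ± 0.20 on the log2 scale (edgeR adjusted p = 0.0277). The call was lost without CD11c+ replicate 2 (-0.60, edgeR adjusted p = 0.0893) or without CD11c- replicate 1 (-0.53, edgeR adjusted p = 0.094). At P5 it had 70.1, 10.7 and 71.1 CPM in CD11c+ libraries and 33.0, 68.4 and 115 CPM in CD11c- libraries, with a log2 fold change of -0.77 ± 0.77 (edgeR adjusted p = 0.824). Without replicate 2 the value was -0.28 ± 0.53 (edgeR adjusted p = 0.773).

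Mobp, which binds the cytoskeleton in compact myelin, had 10.1 and 7.78 CPM in 9-month CD11c+ libraries and 5.43 and 3.44 CPM in CD11c- libraries, without overlap, with a log2 fold change of 0.65 ± 0.35 that did not pass (edgeR adjusted p = 0.200). Proportions among the myelin genes differed between libraries. Mbp counts were 1.60 and 1.40 times those of Mag in 9-month CD11c+ libraries and 10.2 and 5.09 times in 9-month CD11c- libraries. Per exon length, as TPM (counts scaled for exon length and library, calculated here), Cnp was the highest myelin member in 9-month CD11c+ libraries, with 75.4 ± 3.0 TPM against 16.3 ± 5.8 TPM in CD11c- libraries (SD, n = 2 each).

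Slc1a3, the glutamate transporter GLAST (ENSMUSG00000005360, chromosome 15, 8634124 to 8710764), was the highest astrocyte member per exon length at 9 months, with 57.7 ± 2.7 TPM in CD11c+ libraries and 9.17 ± 0.88 TPM in CD11c- libraries (SD, n = 2 each). At 9 months it had 190 and 180 CPM in CD11c+ libraries, against 44.5 and 44.3 CPM in CD11c- libraries, with no overlap. The log2 fold change was 1.68 ± 0.16 (edgeR adjusted p = 0.000457). It made up 95.9% and 96.4% of the summed astrocyte CPM in 9-month CD11c+ libraries and 92.2% and 92.4% in CD11c- libraries. At P5 it had 10.1, 41.6 and 13.9 CPM in CD11c+ libraries and 36.7, 21.8 and 18.3 CPM in CD11c- libraries. Only replicate 2 of the CD11c+ libraries exceeded the CD11c- values. The P5 log2 fold change was -0.40 ± 0.56 (edgeR adjusted p = 0.870), while without replicate 2 it fell by 1.22 ± 0.25 on the log2 scale (edgeR adjusted p = 0.0309).

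The related transporter Slc1a2 (GLT-1), which astrocytes carry in abundance, did not follow Slc1a3. It had 0.785 and 0.727 CPM in 9-month CD11c+ libraries and 0.663 and 0.769 CPM in 9-month CD11c- libraries. Slc1a3 counts were 242 and 248 times those of Slc1a2 in 9-month CD11c+ libraries and 67.1 and 57.6 times in CD11c- libraries. Aldh1l1, a folate enzyme used as an astrocyte marker, had 3.69 and 2.61 CPM in 9-month CD11c+ libraries and 0.746 and 0.949 CPM in CD11c- libraries. Its log2 fold change of 1.51 ± 0.57 did not pass (edgeR adjusted p = 0.0854), though it passed without CD11c- replicate 2 (1.85, edgeR adjusted p = 0.0407). Gfap, the astrocyte intermediate filament, and Aqp4, the water channel, were both low. Gfap had 1.18 and 0.256 CPM in 9-month CD11c+ libraries and 0.829 and 0.316 CPM in CD11c- libraries. Aqp4 had 0.746 and 0.214 CPM in 9-month CD11c+ libraries and 0.456 and 0.407 CPM in CD11c- libraries, and neither gene passed (edgeR adjusted p = 0.994 for Gfap and 0.897 for Aqp4). S100b, a calcium-binding protein, had 1.18 and 1.62 CPM in 9-month CD11c+ libraries and 0.787 and 0.452 CPM in 9-month CD11c- libraries, and did not pass (edgeR adjusted p = 0.441).

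Gja1, the gap junction protein connexin 43 (ENSMUSG00000050953, chromosome 10, 56377300 to 56390419), was the astrocyte member that stood higher in CD11c+ libraries at P5. It had 8.63, 19.9 and 7.43 CPM in CD11c+ libraries and 1.89, 1.77 and 2.27 CPM in CD11c- libraries, without overlap. The log2 fold change of 2.38 ± 0.60 did not pass with all 6 libraries (edgeR adjusted p = 0.265). Without replicate 2 it rose by 1.84 ± 0.30 (edgeR adjusted p = 0.0155). Border-associated macrophage genes (16 genes) moved the same way, at 1.82%, 1.40% and 1.55% of counts in P5 CD11c+ libraries against 0.168%, 0.145% and 0.0829% in P5 CD11c- libraries, and their part in this result was not tested. At 9 months Gja1 had 0.549 and 1.32 CPM in CD11c+ libraries and 0.290 and 0.769 CPM in CD11c- libraries. Most other astrocyte members tested at P5 without replicate 2 went the other way. Besides Slc1a3, the log2 fold changes were -1.98 ± 0.76 for Gfap, -2.26 ± 1.08 for Aqp4 and -1.51 ± 0.90 for Slc1a2. Aldh1l1 stood higher, at 0.88 ± 0.74, and none of these 4 passed (edgeR adjusted p = 0.146, 0.226, 0.328 and 0.498).

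**Figure D2:**
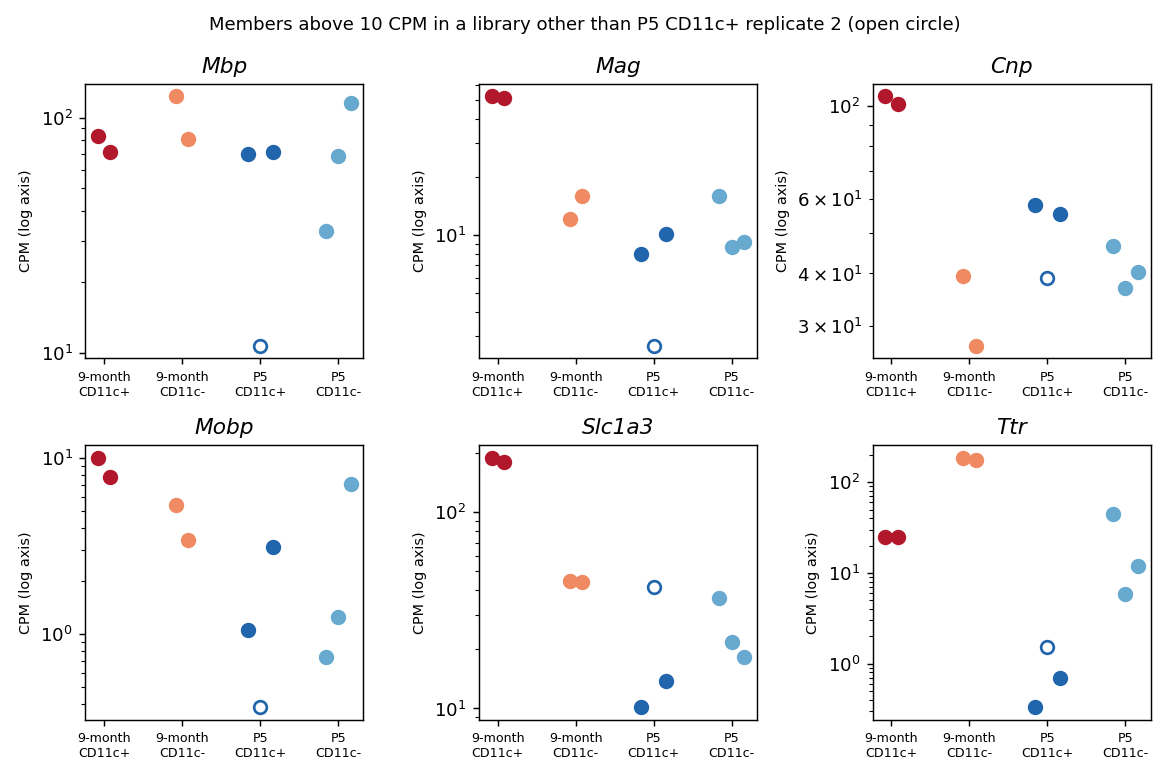
Plain CPM per library (log axis, 1 point a library) of the 6 members above 10 CPM in a library other than P5 CD11c+ replicate 2, by group, with that replicate as an open circle. At 9 months the CD11c+ points lie above the CD11c- points for Mag, Cnp, Mobp and Slc1a3 and below them for Ttr, and they overlap for Mbp.

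Ttr, the carrier of thyroxine and retinol made by the choroid plexus (ENSMUSG00000061808, chromosome 18, 20665250 to 20674324), was lower in CD11c+ libraries at both ages. At 9 months it had 24.9 and 25.1 CPM in CD11c+ libraries, against 187 and 174 CPM in CD11c- libraries. It fell by 3.23 ± 0.16 on the log2 scale (edgeR adjusted p = 3.93e-05), and this was the largest fold of any member tested at that age. At P5 it had 0.329, 1.53 and 0.695 CPM in CD11c+ libraries, which are 5, 4 and 13 counts, against 44.5, 5.83 and 11.8 CPM in CD11c- libraries. Every CD11c+ library was below every CD11c- library. The P5 log2 fold change of -4.90 ± 0.95 did not pass with all 6 libraries (edgeR adjusted p = 0.142), while DESeq2 called it. Without replicate 2 it fell by 5.34 ± 0.95 (edgeR adjusted p = 0.0205).

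Of a wider list of choroid plexus and ependymal genes, 4 of 10 tested genes fell at 9 months and 0 rose, with a median log2 fold change of -1.91, against 0.02 over all genes tested, of which 14.8% rose and 18.2% fell. Among them the lysophospholipase Enpp2 fell by 1.77 ± 0.18, the potassium channel Kcnj13 by 2.86 ± 0.56 and the folate receptor Folr1 by 2.86 ± 0.66 (edgeR adjusted p = 0.000592, 0.00926 and 0.0167). Enpp2 stood the other way at P5, with 14.6, 39.7 and 13.5 CPM in CD11c+ libraries against 4.65, 1.03 and 4.12 CPM in CD11c- libraries, without overlap. Its P5 log2 fold change of 2.61 ± 0.71 did not pass, nor did that of 1.95 ± 0.49 without replicate 2 (edgeR adjusted p = 0.319 and 0.0516). The difference in its log2 fold change, 9 months minus P5, was -4.07 ± 0.79 with all 10 libraries and -3.61 ± 0.57 without replicate 2 (edgeR adjusted p = 0.0339 and 0.00225). At P5 0 of 6 genes of the list passed with all libraries, beside 0.299% higher and 0.0% lower of all genes tested. Without replicate 2, 3 of 6 fell beside 4.42% of all genes tested, namely Kl, Clic6 and Otx2 (edgeR adjusted p = 0.0226, 0.038 and 0.0497). These 3 passed the filter on low counts through CD11c- libraries alone. They could be tested only if lower in CD11c+ libraries, so their share beside that of all genes does not measure a shift of the list. Kl, the FGF23 coreceptor klotho, was at 0 in CD11c+ replicates 1 and 3 and had 1.01, 0.885 and 1.43 CPM in CD11c- libraries. The transcription factor Otx2 had 0.0659, 20.2 and 0.107 CPM in the 3 P5 CD11c+ libraries and 0.606, 0.811 and 1.18 CPM in CD11c- libraries, so here too replicate 2 stood far above the others.

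Neuronal members were scarce at 9 months. The summed level of the 10 neuron members was 2.59 and 5.13 CPM in CD11c+ libraries and 3.60 and 1.31 CPM in CD11c- libraries, which overlapped. Only Snap25, a SNARE protein of synaptic release, and Rbfox3, the neuronal nuclear antigen NeuN, passed the edgeR filter on low counts, and neither was called (edgeR adjusted p = 0.495 and 0.893). Snap25 had 1.37 and 2.09 CPM in 9-month CD11c+ libraries and 1.28 and 0.226 CPM in CD11c- libraries.

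At P5 the neuron sum was 7.38, 109 and 8.82 CPM in CD11c+ libraries and 15.4, 15.9 and 21.6 CPM in CD11c- libraries. The 109 CPM belongs to replicate 2, and the other CD11c+ libraries lay below all 3 CD11c- libraries. Tubb3, the neuronal tubulin, had 0.527, 1.53 and 0.695 CPM in P5 CD11c+ libraries and 3.44, 2.88 and 5.05 CPM in CD11c- libraries, without overlap. Its log2 fold change of -2.35 ± 0.72 did not pass with all 6 libraries (edgeR adjusted p = 0.428). Without replicate 2 it fell by 2.79 ± 0.49 (edgeR adjusted p = 0.0196).

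Stmn2, a microtubule regulator of growing axons, had 0.725, 11.8 and 0.695 CPM in P5 CD11c+ libraries and 2.49, 2.51 and 4.88 CPM in CD11c- libraries. It fell by 2.40 ± 0.55 without replicate 2 (edgeR adjusted p = 0.0397), whereas with it the value was 0.14 ± 1.22 (edgeR adjusted p = 0.987). The synaptic calcium sensor Syt1 had 0.132, 15.7 and 0.0535 CPM in P5 CD11c+ libraries and 0.472, 1.55 and 2.19 CPM in CD11c- libraries. Its log2 fold change was 1.60 ± 1.89 with and -4.07 ± 1.05 without replicate 2, and neither passed (edgeR adjusted p = 0.848 and 0.0559). Replicate 2 was the highest of the 6 for both genes. Nrgn, a calmodulin-binding protein of dendrites, had 0.461, 0.382 and 0.641 CPM in P5 CD11c+ libraries and 1.41, 1.47 and 1.93 CPM in CD11c- libraries, without overlap, and did not pass with or without replicate 2 (edgeR adjusted p = 0.492 and 0.0849). The Stmn2 call was lost when the scale was also set by homeostatic genes (edgeR adjusted p = 0.0646).

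Rbfox3 was the neuron member with the highest CPM in P5 CD11c+ libraries, at 4.48, 33.2 and 4.70 CPM, against 5.05, 3.02 and 3.36 CPM in P5 CD11c- libraries. These overlapped, and the log2 fold change was 1.71 ± 0.88 with and 0.12 ± 0.28 without replicate 2 (edgeR adjusted p = 0.794 and 0.826). The dendritic protein Map2 had 0.790, 5.34 and 1.12 CPM in P5 CD11c+ libraries and 1.08, 1.99 and 1.51 CPM in CD11c- libraries, with a log2 fold change of 0.37 ± 0.90 with and -0.85 ± 0.52 without replicate 2 (edgeR adjusted p = 0.936 and 0.342). The GABA-synthesizing enzymes Gad1 and Gad2 and the vesicular glutamate transporter Slc17a7 did not pass the edgeR filter at either age. Outside replicate 2 the highest value was 0.741 CPM for Gad1, 0.737 CPM for Gad2 and 0.420 CPM for Slc17a7.

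In wider neuronal lists, too, more genes fell than rose once replicate 2 was left out. Of 12 tested genes of immature neurons 8 fell and 1 rose, of 14 of mature neurons 7 fell and 1 rose, and of 4 neuronal long non-coding RNAs 3 fell, beside 5.06% higher and 4.42% lower of all genes tested. The glutamate receptor subunit Gria2 fell by 4.43 ± 0.49, the ubiquitin hydrolase Uchl1 by 3.69 ± 0.52 and the imprinted RNA Meg3 by 5.22 ± 0.52 (edgeR adjusted p = 0.0039, 0.00926 and 0.00249). Gria2 had 0.132 and 0.214 CPM in CD11c+ replicates 1 and 3, and Uchl1 had 0.198 and 0.267 CPM. Both passed the filter on low counts through CD11c- libraries alone. Such genes could be tested only if lower in CD11c+ libraries, so the counts of falling genes are not independent support for that direction. Marcksl1, a cytoskeletal protein also known in macrophages, was the immature neuron gene that rose, by 1.16 ± 0.18 (edgeR adjusted p = 0.0139). With all 6 libraries 0 genes of these 3 lists passed, beside 0.299% higher and 0.0% lower of all 15410 genes tested. Mitochondrially encoded transcripts moved with the same groups, at 2.38%, 0.771% and 2.79% of counts in P5 CD11c+ libraries and 7.15%, 20.7% and 28.0% in P5 CD11c- libraries. Neutrophil genes did so too, at 0.061%, 0.0422% and 0.055% in P5 CD11c+ libraries and 0.117%, 0.387% and 0.214% in P5 CD11c- libraries, and without replicate 2 13 of 16 fell. The part of either in these results was not tested.

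Vessel RNA was represented by Cldn5, the endothelial tight junction protein. It had 0 counts in 9 libraries, where 3 counts would be 0.118 to 0.252 CPM, and 5 counts (1.91 CPM) in P5 CD11c+ replicate 2. In the wider endothelial list 3 of 10 tested genes rose and 1 fell at 9 months, beside 14.8% higher and 18.2% lower of all genes tested. Those with the smallest p were Ly6c1, also carried by monocytes, which fell by 6.39 ± 0.35, the lipid transfer protein Pltp, which rose by 2.03 ± 0.30, and the receptor Kdr, which rose by 1.63 ± 0.35 (edgeR adjusted p = 5.21e-05, 0.0030 and 0.0127). At P5 the secreted protein Egfl7 rose by 3.29 ± 0.29 with all 6 libraries (edgeR adjusted p = 0.018), the only gene of the 9 wider lists to pass there, and by 3.16 ± 0.21 without replicate 2 (edgeR adjusted p = 0.000519).

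**Figure D3:**
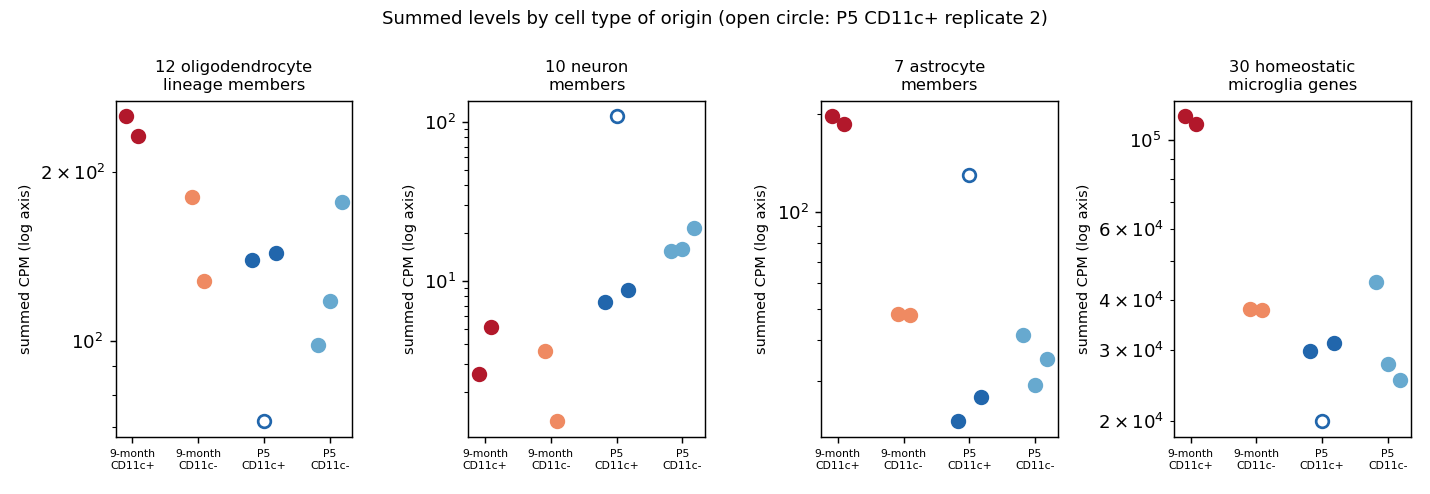
Summed CPM per library (log axes, 1 point a library) of the oligodendrocyte, neuron and astrocyte members and of 30 homeostatic microglia genes, by group. The open circle is P5 CD11c+ replicate 2, which has the highest neuron sum (109 CPM) and the lowest oligodendrocyte sum (71.8 CPM) of the 10 libraries.

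Counted together, 14 of the 31 members passed the filter on low counts at 9 months, of which 3 rose in CD11c+ libraries (Mag, Cnp and Slc1a3) and 2 fell (Mbp and Ttr). Over all 15740 genes tested, 14.8% rose and 18.2% fell, so the members' shares were near the background. The median log2 fold change was 0.53 over the tested members and 0.02 over all genes. In plain CPM, 7 members had both CD11c+ libraries above both CD11c- libraries, beside 49.4% of all tested genes, and 1 had them below, beside 23.7%. At P5 18 members were tested and 0 passed in edgeR, where 0.299% of all 15410 genes rose and 0.0% fell. At an unadjusted edgeR p under 0.05, 1 member was higher and 3 were lower, beside 668 higher and 409 lower of those genes. DESeq2 called 1 higher (Gja1) and 2 lower (Tubb3 and Ttr), beside 1.99% higher and 0.813% lower of 18327 genes. In plain CPM, 1 member had every CD11c+ library above every CD11c- library, beside 11.7% of tested genes, and 3 had them below, beside 3.64%. Without replicate 2, 20 members were tested, of which 1 rose (Gja1) and 4 fell (Tubb3, Stmn2, Slc1a3 and Ttr), beside 5.06% higher and 4.42% lower of 15841 genes. Tubb3 and Ttr needed the CD11c- libraries to pass the filter on low counts there, which favours a fall. There the libraries did not overlap in 2 members with CD11c+ higher, beside 28.8% of tested genes, and in 7 with CD11c+ lower, beside 15.9%.

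**Figure D4:**
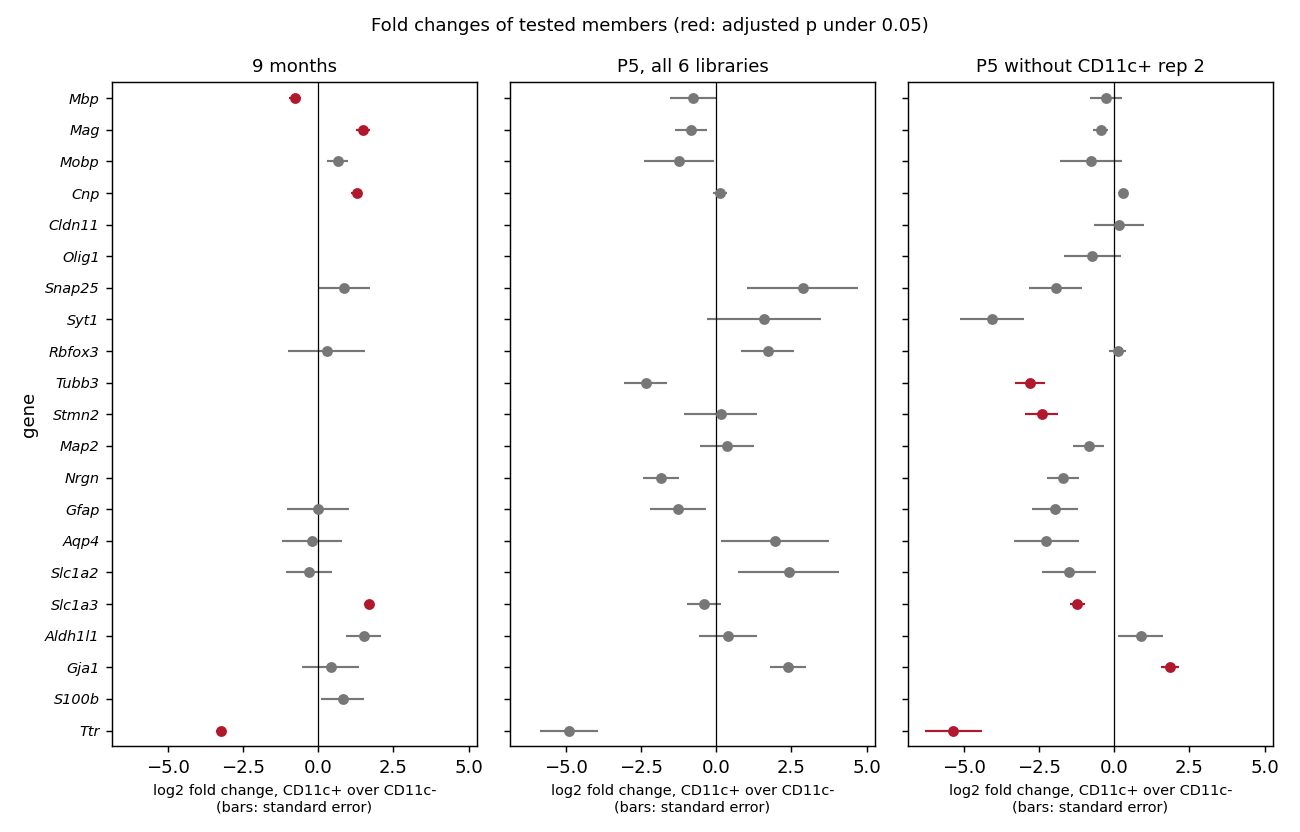
Log2 fold change of CD11c+ over CD11c- with its standard error for each tested member at 9 months, at P5 with all 6 libraries and at P5 without CD11c+ replicate 2, with adjusted p under 0.05 in red. Red points number 5 at 9 months, 0 at P5 with all libraries and 5 without replicate 2. Fits scaled to homeostatic microglia genes are not drawn. In those fits Mobp, Snap25, Rbfox3, Gja1 and S100b, drawn as positive at 9 months, turn negative. Slc1a3, drawn as negative at P5 with all libraries, turns positive.

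The 9-month calls that were higher depended on the scale. All 30 homeostatic microglia genes rose in 9-month CD11c+ libraries, with a median log2 fold change of 1.32. Scaled so that these genes are level, which shifts the median of all genes to -1.17, Mag (0.31 ± 0.23), Cnp (0.07 ± 0.24) and Slc1a3 (0.49 ± 0.18) no longer passed (edgeR adjusted p = 0.293, 0.831 and 0.0541). Mbp then fell by 1.97 ± 0.25 and Ttr by 4.42 ± 0.20 (edgeR adjusted p = 0.000516 and 8.32e-06). In 1 fit of all 10 libraries, which shares its spread with P5, only Cnp and Ttr of these 5 passed (edgeR adjusted p = 0.042 and 0.0415). Per 1000 homeostatic counts, the oligodendrocyte members had 2.19 and 2.11 counts in 9-month CD11c+ libraries and 4.75 and 3.38 counts in CD11c- libraries. Border-associated macrophage genes moved with the same groups, at 0.236% and 0.224% of counts in 9-month CD11c+ libraries and 0.067% and 0.0562% in 9-month CD11c- libraries, with 15 of 16 called higher. Their part in these results, and that of the neutrophil share given above, was not tested.

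The difference between ages, 9-month log2 fold change minus P5 log2 fold change, was tested in all 10 libraries. Of 24 members tested 0 passed, beside 0.302% higher and 1.56% lower of 19555 genes. At an unadjusted edgeR p under 0.05, 4 members were higher and 0 lower, beside 1318 higher and 1833 lower of those genes. DESeq2 called Mag and Cnp higher and 0 members lower, beside 4.29% higher and 9.46% lower of 17417 genes. Without P5 CD11c+ replicate 2, 3 members passed in the higher direction, beside 8.76% of 18348 genes, and 0 in the lower direction, beside 10.3%. These were Mag, Cnp and Slc1a3, and a kit effect that differs between subsets would enter this difference as well.

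P5 CD11c+ replicate 2 had its own pattern. It exceeded each of the 9 other libraries in 16 of 31 members, beside 46.1% of 28205 genes with at least 10 counts in all, so this share was near the background. These 16 were 4 of 12 oligodendrocyte, 7 of 10 neuron and 4 of 7 astrocyte members and Cldn5. Slc1a2 had 45.8 CPM (120 counts) there, 44.4 times its pooled level in CD11c+ replicates 1 and 3 (exact 95% interval 30.2 to 66.6). Snap25 had 25.6 CPM (67 counts), 86.7 times that level (44.3 to 189). The interneuron enzyme Gad2 had 34 counts, whereas its paralogue Gad1 had 1 count.

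Several other markers of the same cells were low in that library. Mbp had 10.7 CPM, 0.151 times the pooled level of replicates 1 and 3 (exact 95% interval 0.1003 to 0.219), and Mag 0.292 times (0.117 to 0.609). Mog, Olig1 and Olig2 had 0 counts, as did 16.9% of those 28205 genes, and the limit of 3 counts set for a count of 0 is 1.15 CPM at this depth. Mobp and Cldn11 had 1 count each. By contrast, Mal, a myelin lipid raft protein, had 13 counts, Sox10 14, Pdgfra 12 and Cspg4, a precursor proteoglycan, 10. These 4 were the oligodendrocyte members that exceeded each of the 9 other libraries. They stood at 84.1, 22.6, 25.9 and 18.5 times the pooled level of replicates 1 and 3, which held 2, 8, 6 and 7 counts. These intervals and limits describe counting error alone, because the labels name no molecular identifiers.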

How the data were processed

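RNA-seq counts of 10 libraries of sorted microglia were used. The values deposited by the authors are unnormalized counts of reads, 1 whole number for each gene and library, with gene coordinates and exon length (other columns) beside them. Per the submitters' processing notes reads passed through Trimmomatic 0.36, STAR 2.5.2b and Subread 1.5.2. Build, strand use and treatment of multimapping reads: not given in the sources used here. Reads of overlapping or antisense genes therefore cannot be told apart. All columns of sample values were used, with 0 left out.

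Symbols came from a GENCODE M21 annotation, for 48970 identifiers. CPM and TPM were computed here from counts. Each age was fitted with edgeR 4.0.16 in R 4.3.3 (filterByExpr, TMM scaling, quasi-likelihood F-test), and the difference between ages as an interaction in all 10 libraries. P-values were adjusted over all genes tested by the Benjamini-Hochberg method, with a threshold of 0.05. Differences are log2 fold changes, CD11c+ over CD11c-. A gene near 0 in a group can pass the filter through the other group alone, and can then be tested only in that direction. DESeq2 1.42.0, other scalings, no filter and libraries left out were alternatives. Tests were checked on simulated data with 200 changed genes and a fixed spread. At P5 and for the difference these data left out P5 CD11c+ replicate 2, so the check does not cover fits that include that library. Replicates differed by more than sampling noise (chi-square per degree of freedom 25.3 to 209.9).

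The members and lists were chosen with earlier results of these data known. Named genes were all 31 members and, of each wider list (9 lists, 144 genes), up to 3 genes with the smallest p in each comparison. Single values are plain CPM, and figures were drawn from them.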

Additional observations from a re-analysis of the deposited data

Results flagged for a closer look

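In 3 members the CD11c+ over CD11c- fold change differed between 9 months and P5 by the interaction test, once P5 CD11c+ replicate 2 was left out. The difference in log2 fold change was 3.02 ± 0.35 for Slc1a3, 2.04 ± 0.40 for Mag and 1.10 ± 0.23 for Cnp (edgeR adjusted p = 0.00056, 0.0064 and 0.00902). With all 10 libraries the values were 2.40 ± 0.66, 2.40 ± 0.71 and 1.34 ± 0.44, and none of the 3 passed (edgeR adjusted p = 0.104, 0.133 and 0.169). The homeostatic microglia genes moved the same way, with 25 of 30 called higher for this difference without that library. With homeostatic scaling added, an alternative chosen after seeing the data, the difference was 1.48 ± 0.30 for Slc1a3, 0.53 ± 0.34 for Mag and -0.43 ± 0.35 for Cnp (edgeR adjusted p = 0.00214, 0.232 and 0.347).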

How the results depend on the processing

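The 10 libraries limit precision, and depth limits P5 CD11c+ replicate 2 most. Deviations of same-numbered libraries from their group means correlated at 0.0483 at 9 months and at 0.523, 0.029 and -0.504 at P5. With 2 libraries a group, as at 9 months, the deviations mirror each other, so that value can differ only in sign. Whether the numbers pair samples cannot be decided from these values, and the main fits did not pair them. The replicate block gave 5436 calls at 9 months and 0 at P5 and for the difference. The cause of the following shifts was not tested.

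Genes called at 9 months numbered 5202, 8636 scaled to the homeostatic list (120 higher and 8516 lower, against 2333 and 2869) and 1158 in 1 fit of all 10 libraries; members higher were 0 and 1 there, and members lower 1 in the single fit. With 1 library left out, members lower numbered 1 to 2. At P5, 46 genes were called, 513 by DESeq2, 77 with homeostatic scaling, 138 in the single fit (1 member lower), 0 to 1501 with a library left out (0 to 1 members higher, 0 to 4 lower), and 1277 (1 member higher, 3 lower) without CD11c+ replicate 2 with homeostatic scaling, an alternative chosen after seeing the data. For the difference, 364 genes were called, 2395 by DESeq2 and 693 without a filter (2 members each), 623 with DESeq2 size factors, 5294 with homeostatic scaling, 0 to 3496 with a library left out (0 to 3 members) and 8635 (2 members) with both changes.

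Signs turned as follows. At 9 months, homeostatic scaling gave Mobp -0.56, Snap25 -0.37, Rbfox3 -0.93, Gja1 -0.73 and S100b -0.39, and Gfap was 0.004 in DESeq2, 0.046 without a filter and 0.13 in the single fit. With a library left out, Rbfox3 was -0.91 to 2.83, Gfap -1.44 to 0.74, Aqp4 -1.32 to 0.46 and Gja1 -0.31 to 1.45. At P5 the block gave Snap25 -0.089, Syt1 -1.33, Stmn2 -1.12, Map2 -0.016 and Aqp4 -0.43; no filter gave Stmn2 -0.43 and Map2 -0.01, the single fit Stmn2 -0.14, and homeostatic scaling Slc1a3 0.25. Without replicate 2 and with homeostatic scaling Snap25 was -1.83, Syt1 -3.95, Stmn2 -2.25, Map2 -0.70, Aqp4 -2.17 and Slc1a2 -1.42. With a library left out, Mobp was -2.31 to 0.53, Cnp -0.04 to 0.29, Snap25 -1.94 to 3.27, Syt1 -4.07 to 2.06, Stmn2 -2.40 to 0.58, Map2 -0.85 to 0.68, Aqp4 -2.26 to 2.70, Slc1a2 -1.51 to 3.29 and Aldh1l1 -0.005 to 1.66. For the difference, Mbp was -0.001 in DESeq2, -0.017 with DESeq2 size factors and -1.41 with homeostatic scaling (-1.81 with replicate 2 also left out), Cnp -0.45 and -0.43 in the same 2 settings, and Tubb3 -0.046 with homeostatic scaling; with a library left out Mbp was -0.47 to 0.52 and Stmn2 -5.86 to 0.78.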

Other observations

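Of 11 tested genes of a wider myelin list, 1 rose and 5 fell in 9-month CD11c+ libraries, beside 14.8% higher and 18.2% lower of all genes tested, with a median log2 fold change of -1.41. Trf, the iron carrier transferrin, rose by 1.79 ± 0.14, with 694 and 648 CPM in CD11c+ libraries and 162 and 139 CPM in CD11c- libraries. Tspan2, a tetraspanin of myelin, fell by 3.29 ± 0.48 (edgeR adjusted p = 0.000211 and 0.00273). Without P5 CD11c+ replicate 2, Trf rose by 1.12 ± 0.14 at P5 as well, and the acetylaspartate-cleaving enzyme Aspa by 3.26 ± 0.42 (edgeR adjusted p = 0.00579 and 0.00696). With all 6 P5 libraries neither passed, at 0.95 ± 0.25 for Trf and 3.90 ± 0.75 for Aspa (edgeR adjusted p = 0.296 and 0.136).

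Among precursor genes 1 of 2 tested fell at 9 months. The proteoglycan Vcan fell by 4.39 ± 0.48, and it fell by 3.03 ± 0.62 at P5 without replicate 2 (edgeR adjusted p = 0.000864 and 0.0301), when 2 of 6 fell beside 4.42% of all genes tested. With all 6 P5 libraries its log2 fold change of -1.23 ± 1.02 did not pass (edgeR adjusted p = 0.806). Cacng4, the other gene that fell at P5, had 0.264 and 0.214 CPM in CD11c+ replicates 1 and 3. It passed the filter on low counts through CD11c- libraries alone, so it could be tested only if lower in CD11c+ libraries. Vcan made up 89.5% and 90.1% of the summed CPM of this list in 9-month CD11c- libraries, so its fall there does not describe the other precursor genes. At 9 months 1 of 5 immature neuron genes fell (Stmn1, a tubulin-binding protein of dividing cells, by 3.13 ± 0.17) and 1 of 11 astrocyte genes rose (Glul, glutamine synthetase, by 0.54 ± 0.15; edgeR adjusted p = 5.42e-05 and 0.0349). Of 3 mural and fibroblast genes tested 2 fell at 9 months, beside the 18.2% of all genes given above. The smooth muscle actin gene Acta2 fell by 5.79 ± 0.31, and the collagen Col1a1 had 0.0785 and 0 CPM in CD11c+ libraries and 0.746 and 0.859 CPM in CD11c- libraries (edgeR adjusted p = 5.16e-05 and 0.0377). Col1a1 passed the filter on low counts through CD11c- libraries alone, so it could be tested only if lower in CD11c+ libraries.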
